A study of Mus musculus with 80 samples.

Results

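The proteasome subunit genes were taken as the protein-coding genes of GENCODE release M21 (mm10) whose symbols start with Psma, Psmb, Psmc, Psmd or Psme. There were 45 such genes among 21938 protein-coding genes, 19 of them core genes (Psma and Psmb) and 26 regulatory genes (Psmc, Psmd and Psme). The symbols also caught Psmc3ip, a meiotic recombination factor that is no subunit, and 3 assembly chaperones (Psmd5, Psmd9 and Psmd10). A gene was scored as called in a liver when a ChIP-Seq peak of the retinoid X receptor (RXR) overlapped its exons or introns. A call stands for a peak and not for binding. In Pio-treated WT and in KO livers most summits in these genes lay in coding exons, and some intronless pseudogenes had peaks too. Whether the peaks mark RXR on chromatin was not tested.

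All mice were male, 5 months old and had been on their diet for 12 weeks. WT mice were C57BL6/J. KO mice carried loxP-flanked PPARγ alleles and an Alb-Cre transgene, which drives Cre in hepatocytes, so that other liver cells keep the receptor. Mice of either genotype ate a control diet or a high-fat diet (HFD), and on each diet a group received pioglitazone, so that the untreated groups are Control and HFD and the treated groups Pio and HFD-Pio. This gave 8 groups with 5 livers apiece and 1 ChIP library per liver. The labels name an RXR antibody for the WT groups and KO Control and none for the other 15 KO libraries, whose titles name RXR.

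The proteasome is the barrel-shaped protease that degrades proteins tagged with ubiquitin. Its core is a stack of rings of alpha and beta subunits, with the proteolytic sites inside the beta rings, and its regulatory cap holds a ring of ATPases that unfold substrates and non-ATPase subunits that bind and deubiquitinate them. Other caps (the products of Psme1 to Psme4) open the core without ATP. RXR pairs with PPARγ and other nuclear receptors on repeats of the hexamer AGGTCA, and pioglitazone is a PPARγ agonist. Proteasome genes are expressed in every tissue.

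Depth and calling differed between genotypes. WT ChIP libraries kept 2.04 to 4.26 M tags (M for mega) and KO libraries 0.628 to 1.06 M, and the authors called peaks at a p cutoff of 0.001 in WT and a q cutoff of 0.05 in KO livers, so genotype, depth and cutoff cannot be told apart. WT libraries had 579 to 33705 peaks and KO libraries 7630 to 30437. In 6 of the 10 Pio-treated WT libraries (Pio replicates 2, 3 and 5, HFD-Pio replicates 1, 4 and 5) MACS2 estimated a fragment length of 45 to 48 bp, against 169 to 263 bp in the other 4. Exonic peaks in fixed lists of marker genes also moved with the groups. Of 15 neural markers, 12 had an exonic peak in at least 3 of 5 livers in each KO group (66.7 to 86.7% of the list per library) and 0 or 1 in each WT group (0 to 26.7%). Of 12 intestinal markers, 4 passed in WT Pio and in WT HFD-Pio (0 to 50% per library), 0 in untreated WT and 0 in KO groups, and Fabp2, Apoa4, Reg3b, Reg3g and Sis had 0 exonic peaks in every group. Of 10 smooth muscle markers, 4 passed in both Pio-treated WT groups (20 to 50%), 0 in untreated WT and 3 to 6 in KO groups (20 to 80%). Of the 12 liver markers, 0 passed in every WT group and only Ttr passed in each KO group, while Alb, Apoa1, Serpina1c, Cyp2e1 and Ttr each had an exonic peak in 1 WT Control library. Lymphoid and Kupffer cell and macrophage lists had at most 1 gene past that limit in any group. The part of these shifts in the results below was not tested.

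Peaks in proteasome genes were rare in untreated WT livers and frequent in the other classes. Per untreated WT library a mean of 2.67% of these genes had a peak, against 4.13% of all protein-coding genes, so peaks were rare there over all genes. The means were 57.8% against 15.8% in Pio-treated WT, 65.3% against 25.9% in untreated KO and 70.7% against 29.9% in Pio-treated KO livers. WT Control libraries had a peak in 1 to 5 of the 45 genes and WT HFD libraries in 0 or 1. Pio-treated WT libraries covered a wide range, from 10 to 40 genes in Pio and from 5 to 37 in HFD-Pio. KO libraries had a peak in 18 to 35 genes whatever the treatment, so that untreated WT livers were separated from every KO liver and overlapped in number with WT HFD-Pio only through WT Control replicate 5 and WT HFD-Pio replicate 2, with 5 genes each. Among the Pio-treated WT libraries, the 6 with the short fragment estimate had 28 to 40 genes (median 33.5), and the other 4 had 5 to 32 (median 9). Of all protein-coding genes, 16.35 to 32.89% had a peak in the 6 libraries and 3.706 to 11.69% in the other 4.

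**Figure D1:**
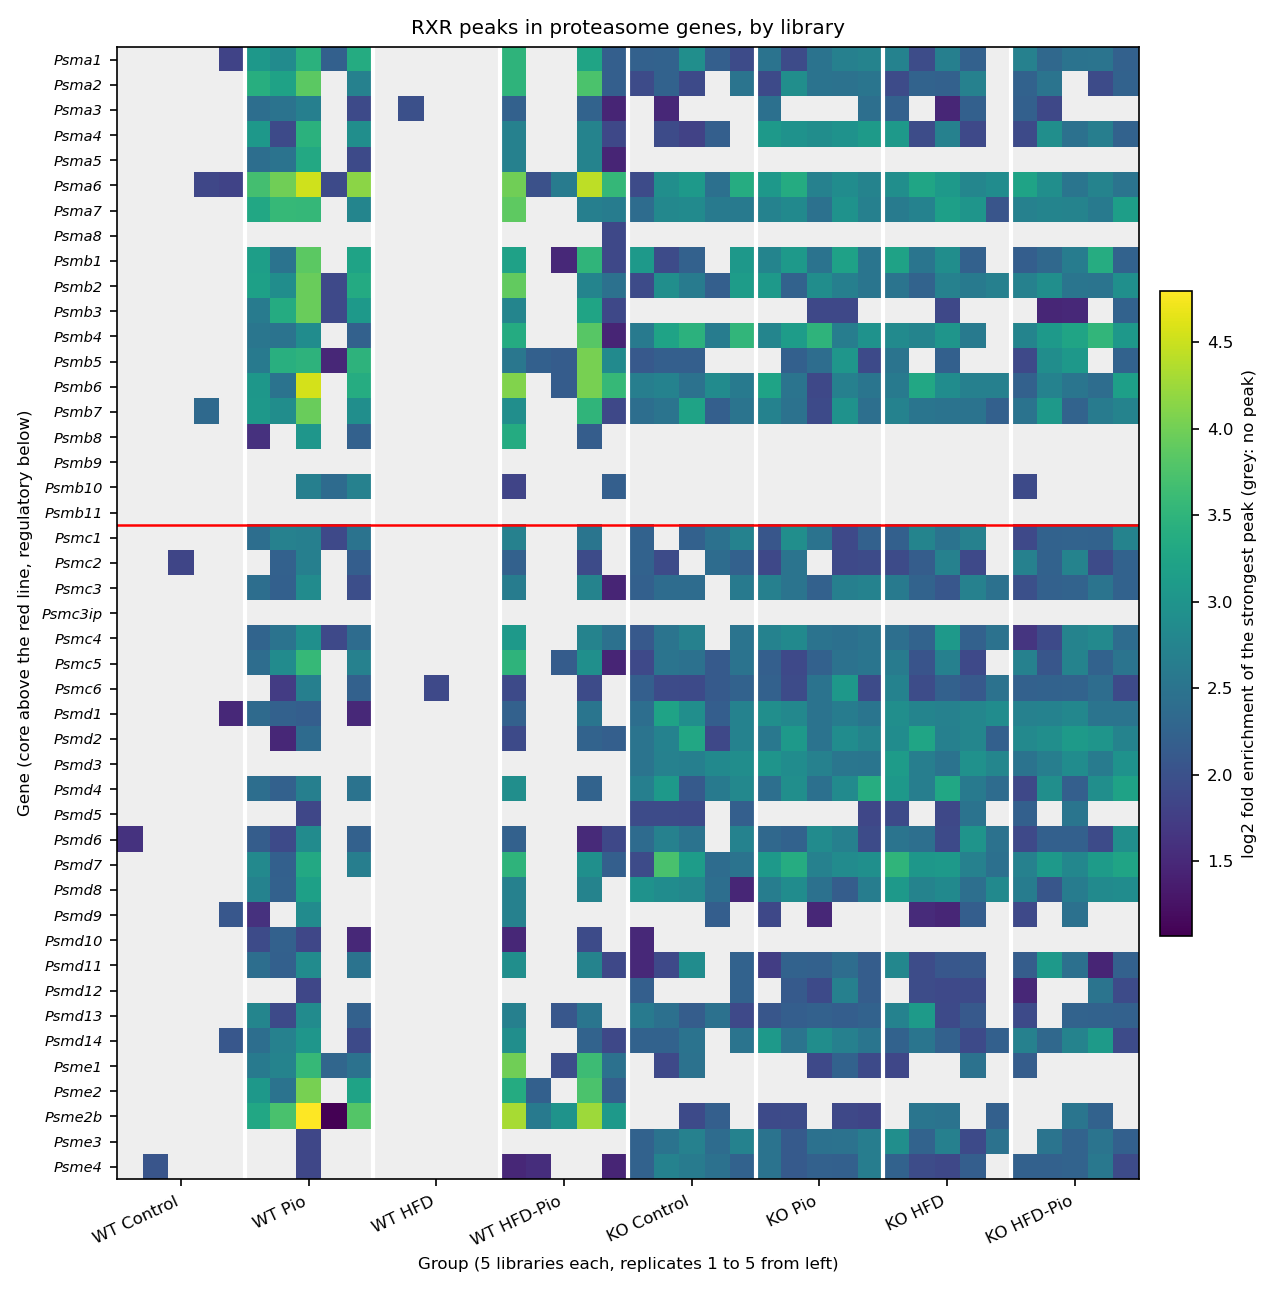
Each row is a proteasome gene and each column 1 of 40 libraries, grouped by genotype and treatment. Color gives the log2 fold enrichment of the gene's strongest peak and grey marks no peak. Untreated WT columns are almost empty, Psmd3 is filled in the 20 KO columns and in 0 WT columns, and Psme2 and Psma5 are filled in Pio-treated WT columns alone.

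Counting genes called in at least 3 of 5 livers, WT Control had 0 of 45 against 2.21% of all protein-coding genes, and WT HFD had 0 against 0.515%. WT Pio had 34, which is 75.6%, against 12.7% of all genes, and WT HFD-Pio had 27, which is 60%, against 10%. The KO groups had 30 (Control), 32 (Pio), 33 (HFD) and 31 (HFD-Pio), against backgrounds of 24.3%, 29%, 25.7% and 27.6% of all genes. With exonic peaks alone, WT Control and WT HFD had 0 genes against 0.0593% and 0.0547% of all genes, WT Pio had 34 against 6.55% and WT HFD-Pio 25 against 4%, and the KO counts were the same as with any peak, against 22%, 26.9%, 23.6% and 25%. The counts depended on the threshold: at -log10 q of at least 5 they were 17 in WT Pio, 5 in WT HFD-Pio, and 18, 20 and 18 in KO Control, KO Pio and KO HFD, and with 579 peaks kept per library they were 2, 3 and 0 in WT Pio, WT HFD-Pio and each KO group. The shares of all genes at these settings were not computed, so these counts do not show whether proteasome genes fell more than others. With the short-fragment libraries left out and a peak required in both remaining livers, 9 genes passed in WT Pio, against 2.39% of all genes, and 3 in WT HFD-Pio, against 1.76%. The remaining WT Pio libraries had 32 (replicate 1, fragment estimate 191 bp) and 10 genes (replicate 4). Leaving out HFD-Pio replicate 1, 4 or 5 alone brought the HFD-Pio count to 8, 9 or 9. A peak was still required in 3 livers there, which is a stricter rule for the livers left.

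Pioglitazone was compared with no drug within WT livers, stratified by diet. By the exact conditional test (two-sided, Benjamini-Hochberg over 12347 genes), 12 of 45 proteasome genes were called in more Pio-treated than untreated WT livers and 0 in fewer, against 4.15% of all genes tested called higher and 0% lower. The 12 were 6 core genes (Psma6, Psmb1, Psmb2, Psmb3, Psmb5 and Psmb6) and 6 regulatory genes (Psmc1, Psmc4, Psmc5, Psme1, Psme2 and Psme2b), and 32 of the 45 had an unadjusted p under 0.05, against 14.6% of genes tested. The median gene was called in 6 more treated than untreated livers, against 1 over all genes tested. Without the 6 short-fragment libraries, 4 treated and 10 untreated livers remained, the smallest p the design allowed was 0.00227 (exact, adjusted p = 0.199), and 0 of the 12 passed. Psme2b and Psmb5 were then called in 4 of 4 treated and 0 of 10 untreated livers, which held for 1.14% of genes tested, and Psma6 in 4 of 4 and 2 of 10. Leaving out WT Pio replicate 4, the treated library with the fewest genes called in its group, raised the count to 27. Leaving out WT Control replicate 2 gave 22, and leaving out WT HFD-Pio replicate 2, 3 or 5 gave 24 each. The shares of all genes called with 1 of these libraries left out were not computed, so a rise over all genes cannot be told from one in proteasome genes.

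The most recurrent site of these genes is shown for 8 members by the 30 bases around its median summit, read 5′ to 3′ on the gene's strand from the RefSeq mm10 (GRCm38.p6) assembly, to show which exonic sequence lay under the peaks. Capitals mark the 6 bases closest to AGGTCA, the hexamer bound by RXR and its partners, on either strand.
Psme2b, exon 1 of 1, chr11:48945640-48945669, minus strand: gaatgCTGTCAagaccaaagtagaagcttt
Psmb5, exon 2 of 3, chr14:54616623-54616652, minus strand: gaatctaTGAGCTtcgcaataaggaacgca
Psma6, exon 4 of 7, chr12:55410181-55410210, plus strand: acaagtatggctaTGAAATtcctgtggaca
Psmb6, exon 4 of 6, chr11:70526544-70526573, plus strand: tatTGAACTgaacgagcctccactagtcca
Psmb2, exon 4 of 6, chr4:126706096-126706125, plus strand: cgagcatgaAGGGCCagccctttactacat
Psme1, exon 11 of 11, chr14:55581332-55581361, plus strand: ttgagaAGCTCAagaagccccgtggagaaa
Psmc4, exon 9 of 11, chr7:28042417-28042446, minus strand: tGGACCGaaaaattgaattcccactccctg
Psmd7, exon 7 of 7, chr8:107581041-107581070, minus strand: gtaccTGGCCTcgctgatccgctctgtggt

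The site of Psma6 had a peak in 28 libraries, that of Psmd7 in 27, those of Psmb2, Psmb6 and Psmc4 in 25 each, that of Psme2b in 21, that of Psmb5 in 20 and that of Psme1 in 15. Each of the 8 windows lies in a coding exon. Of the 13 such windows that could be drawn for the most recurrent members, 0 held AGGTCA without a mismatch, 4 held it with 1, 7 with 2 and 2 with 3. For Psma1 and Psme2 the median summit of the most recurrent site fell in an intron, and no window was drawn.

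Among the activators of the core, Psme2b, Psme1 and Psme2 were called in more treated than untreated WT livers, and Psme3 and Psme4 did not pass the test. Psme2b (chr11:48945354-48946190) had no peak in 10 untreated WT livers, and its fold enrichment, the ratio of ChIP signal to local input at the summit, was 9.94, 13.3, 27.8, 2.1 and 13.9 in the 5 Pio livers and 19.8, 6.12, 7.95, 19 and 8.38 in the 5 HFD-Pio livers (exact p = 3.15e-05, adjusted p = 0.00474). Every treated liver was called and no untreated one, and the levels were lowest in WT Pio replicate 4 and highest in WT Pio replicate 3. In KO livers Psme2b was called in 11 of 20, at 3.60 to 5.72. Psme2b has a single exon and is a near copy of Psme2: the transcripts are 99.4% identical over 794 aligned bases, so peaks of the pair may share reads and their separate values are uncertain. Psme2, the beta subunit of the PA28 activator (chr14:55587441-55591113), was called in 4 of 5 Pio livers, at 8.36, 5.61, 16.4 and 9.38, and in 4 of 5 HFD-Pio livers, at 10.3, 4.65, 13.3 and 4.58 (exact adjusted p = 0.0293). It had no peak in untreated WT livers or in any of the 20 KO livers. Psme1, which encodes the alpha subunit of the same activator and lies beside it (chr14:55578123-55581529), was called in 5 of 5 Pio livers at 4.95 to 11.8 and in 4 of 5 HFD-Pio livers at 3.88 to 15.9 (exact adjusted p = 0.0101), against 0 of 10 untreated WT livers and 8 of 20 KO livers. Over the 9 treated livers its median was 6.08, and over the 8 KO livers 4.13.

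Psme3 and Psme4, which encode the nuclear activator PA28 gamma and the activator PA200, had another pattern. Psme3 (chr11:101316213-101323537) was called in 1 of 20 WT livers, at 3.64 in WT Pio replicate 3, and in 19 of 20 KO livers, with a lowest, median and highest fold enrichment of 3.74, 5.57 and 7.57. Psme4 (chr11:30771726-30880361) was called in 5 WT and 19 KO livers. Psme3 and Psme4 were thus each called in 19 of 20 KO livers, while Psme1, Psme2 and Psme2b were called in 8, 0 and 11.

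Among the beta subunits, Psmb5, the chymotrypsin-like catalytic subunit (chr14:54614119-54618022), was called in 10 of 10 Pio-treated and 0 of 10 untreated WT livers (exact adjusted p = 0.00474). Its fold enrichment was 6.06, 10.7, 11.2, 2.81 and 11.1 in Pio and 5.83, 4.65, 4.44, 16.4 and 7.21 in HFD-Pio. In KO livers it was called in 13 of 20, at 3.72 to 8.30. Psmb5 and Psme2b were the proteasome genes called in every treated and no untreated WT liver. Psmb6 (chr11:70525367-70527858), the caspase-like catalytic subunit, was called in Pio livers 1, 2, 3 and 5 at 8.21, 5.61, 23.7 and 10.5 and in HFD-Pio livers 1, 3, 4 and 5 at 17, 4.44, 16.4 and 11.9 (exact adjusted p = 0.0293). It was also called in 20 of 20 KO livers, at a lowest, median and highest value of 3.68, 6.41 and 9.94. Psmb7 (chr2:38588036-38644087), the trypsin-like catalytic subunit, was called in 7 Pio-treated WT livers at 3.66, 7.51 and 15.5 (lowest, median and highest), in WT Control replicate 4 at 5.09 and in 20 of 20 KO livers at 3.75, 5.65 and 9.38, and did not pass the test in WT livers.

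The structural beta genes Psmb1, Psmb2 and Psmb3 were each called in 8 treated WT livers. Psmb2 (chr4:126677630-126709714) had a lowest, median and highest value of 3.70, 8.30 and 15.5 there and of 3.78, 6.28 and 8.75 in 20 KO livers. Psmb1 (chr17:15475021-15499751) had 2.82, 9.09 and 14.6, and 3.77, 5.97 and 10.4 in 18 KO livers. Psmb3 (chr11:97703399-97713500) had 3.66, 7.63 and 15.5, but was called in 6 KO livers, at 2.76, 3.68 and 4.75. All 3 genes had 0 of 10 untreated WT livers called, with exact adjusted p of 0.0249 for Psmb2 and Psmb3 and 0.0293 for Psmb1. Psmb4 was called in 7 treated WT and 19 KO livers.

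The immunoproteasome subunits replace the catalytic beta subunits in immune cells and under interferon. Psmb8 was called in 5 Pio-treated WT livers, at 3.04 to 10.3, and in 0 of 20 KO livers. Psmb10 was called in 5 Pio-treated WT livers, at 3.58 to 6.57, and in 1 KO liver. Psmb9 was called in 0 of 40 livers, as were Psmb11, the thymus-specific beta subunit, and Psmc3ip. Psma8, the testis-specific alpha subunit, was called in 1 of 40.

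Among the alpha subunits, Psma6 (chr12:55384222-55418454) was the gene called in most livers, 32 of 40. Its fold enrichment was 12.8, 16, 23, 3.75 and 17.8 in WT Pio and 15.9, 3.99, 6.17, 21.6 and 11.8 in WT HFD-Pio, and it was also called in WT Control replicates 4 and 5, at 3.64 and 3.55 (exact adjusted p = 0.0249 for treated against untreated). The treated and untreated livers did not overlap, but the lowest treated value, 3.75, was close to both control values. In 20 of 20 KO livers Psma6 lay between 3.78 and 10.4, with a median of 7.47. Psma1 (chr7:114264606-114276118) was called in 8 treated WT livers at 4.58, 8.94 and 11.3 (lowest, median and highest), in WT Control replicate 5 at 3.55 and in 19 KO livers at 3.77, 5.62 and 7.51. Psma7 (chr2:180036374-180042433) was called in 7 treated WT livers at 6.24, 9.91 and 14.7 and in 20 KO livers at 4.14, 6.58 and 9.02. Psma2, Psma4 and Psma3 were called in 7 treated WT livers each and in 17, 17 and 8 KO livers. Psma5 stood apart from the other constitutive alpha genes, with 7 treated WT livers called at 2.75 to 10.02 and 0 of 20 KO livers.

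Among the ATPases, which form the ring that unfolds substrates, Psmc4 (chr7:28041707-28050101) and Psmc5 (chr11:106256154-106263120) were each called in 8 treated and 0 untreated WT livers, at 3.70, 5.55 and 8.52 for Psmc4 and 2.75, 6.94 and 11.8 for Psmc5. In KO livers both were called in 19, at 3.14, 5.62 and 8.45 and at 3.70, 5.51 and 6.67. Psmc1 (chr12:100110154-100123405) was called in 7 treated and 0 untreated WT livers, at 3.70, 5.71 and 6.56, and in 18 KO livers at 3.71, 4.76 and 7.55. Exact adjusted p in WT was 0.0249 for Psmc4, 0.0293 for Psmc5 and 0.0425 for Psmc1. Psmc2, Psmc3 and Psmc6 were called in 5, 7 and 5 treated WT livers and in 17, 19 and 20 KO livers, and did not pass the test in WT.

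None of the non-ATPase subunits with a Psmd symbol passed the test of pioglitazone in WT livers. Psmd7 (chr8:107580381-107588464), the partner of the deubiquitinase Psmd14, was called in 7 treated WT livers at 4.58, 7.08 and 11.3 (lowest, median and highest) and in 20 KO livers at 3.78, 7.92 and 13.2. Psmd1 (chr1:86064387-86139151), a scaffold of the cap, was called in 6 treated WT livers at 2.82, 4.68 and 5.71, in WT Control replicate 5 at 2.84 and in 20 KO livers at 4.56, 6.59 and 9.43. Psmd14, Psmd11, Psmd13 and Psmd6 were called in 7 treated WT livers each and in 19, 18, 18 and 19 KO livers. Psmd12 was called in 1 WT and 12 KO livers. The chaperones Psmd5, Psmd9 and Psmd10 were called in 1, 4 and 6 WT livers and in 10, 8 and 1 KO livers.

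Psmd3 (chr11:98682554-98695979), a non-ATPase cap subunit, had no peak in any of 20 WT livers and a peak in 20 of 20 KO livers. Its fold enrichment was 5.66, 6.52, 6.43, 7.19 and 7.44 in KO Control, 7.98, 7.40, 6.56, 5.78 and 5.74 in KO Pio, 8.71, 6.32, 5.63, 7.76 and 6.88 in KO HFD, and 5.63, 6.37, 7.38, 6.17 and 7.87 in KO HFD-Pio. The 4 KO groups overlapped throughout. Psmd2, the other cap scaffold (chr16:20651652-20663414), was called in 5 WT livers at 2.81 to 5.18 and in 20 KO livers at 3.66 to 9.90. Psmd8 (chr7:29174188-29180701) was called in 5 WT livers at 4.68 to 9.11 and in 20 KO livers at 2.77 to 8.49, and Psmd4, a ubiquitin receptor (chr3:95032694-95042614), in 6 WT livers at 4.68 to 7.50 and in 20 KO livers at 3.67 to 10.5.

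WT and KO livers were then compared with the exact test stratified by treatment. Of the 45 genes, 30 were called in fewer WT than KO livers (10 core and 20 regulatory), against 36% of 16046 genes tested, and 2 in more WT livers (Psma5 and Psme2), against 2.11%. Exact adjusted p was 2.19e-08 for Psmd3, 2.49e-07 for Psme3, 4.9e-06 for Psmd2 and Psmd8 and 9.26e-06 for Psmd4. In the other direction it was 0.0121 for Psma5 and 0.00385 for Psme2. Depth and cutoff differ between the genotypes, and the call did not hold at equal list length: with 579 peaks kept per library, 2 genes were called in more WT livers and 0 in fewer. The shares of all genes called at that length were not computed.

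**Figure D2:**
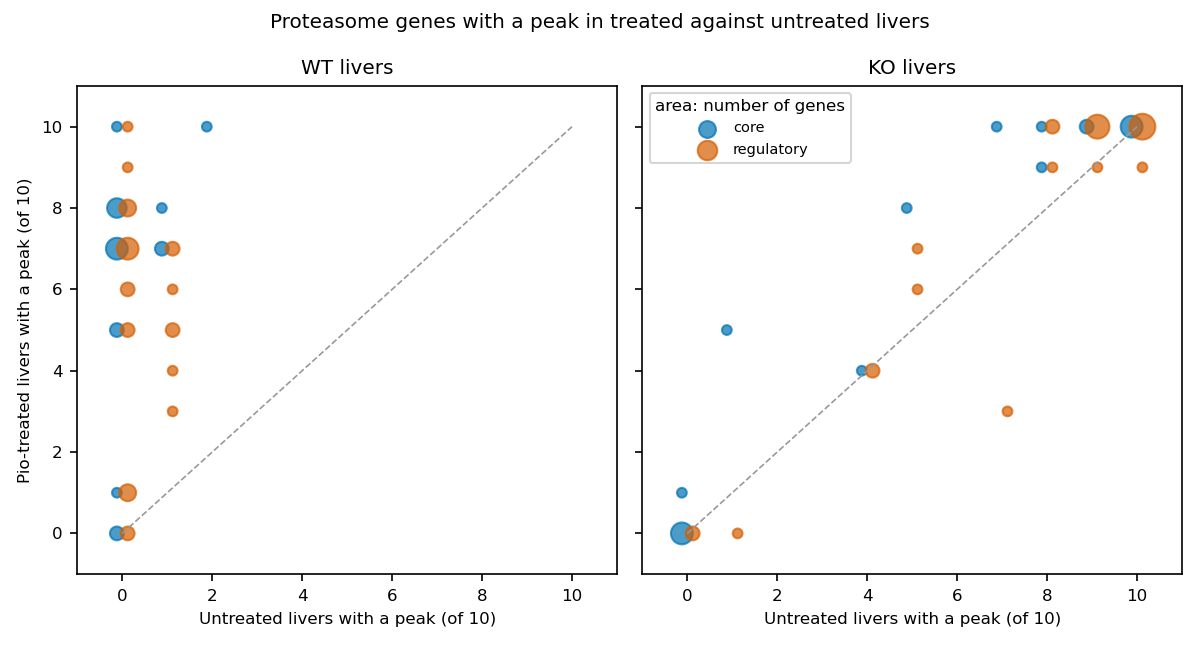
Each point stands for the genes with the same number of untreated livers (x axis, of 10) and Pio-treated livers (y axis, of 10) with a peak, core in blue and regulatory in orange, with area proportional to the number of genes and a dashed line of equality. In WT livers 41 genes have a peak in at least 1 treated liver and the untreated numbers reach 2, while in KO livers most genes sit near 10 on both axes.

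Room for more calls in KO livers differed between genes. In untreated KO livers 13 of the 45 genes were called in 10 of 10, where no rise was possible, and 8 in none. In KO Control 9 had 0 calls, as had 9 in KO HFD. Of the genes that passed in WT livers, Psme2, Psmb3, Psme1, Psmb5 and Psme2b were called in 0, 1, 4, 5 and 5 of 10 untreated KO livers. In treated KO livers these numbers were 0, 5, 4, 8 and 6. By the exact test 0 of 45 proteasome genes passed in KO livers in either direction, against 0% of all genes tested. An unadjusted p under 0.05 was reached by 0 of 45 (smallest p = 0.143, exact), against 0.861% of genes tested. Genes gained, that is called in at least 3 of 5 treated and 0 of 5 untreated livers, numbered 27 on control diet and 26 on HFD in WT, against 15.6% and 19.2% of all genes tested, and 0 and 0 in KO livers, against 1.61% and 0.917%. On each diet only the 9 genes with 0 calls in the untreated KO group could be gained in KO livers, so this count says nothing about the other genes. No proteasome gene was lost in any of the 4 contrasts. Within a single diet, with 5 livers against 5, Fisher's exact test could not pass the adjustment: the smallest possible p of 0.00794 corresponded to an adjusted p of 0.306 on control diet and 0.359 on HFD in WT. Unadjusted p under 0.05 was reached by 24 genes on control diet and 8 on HFD in WT, against 10.7% and 7.04% of genes tested, and by 0 and 0 in KO livers, against 0.939% and 0.388%.

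The difference of the pioglitazone effect was tested by Zelen's exact test. Between diets in WT, 0 of 45 genes passed, against 0% of all genes tested, and the smallest unadjusted p among the 45 was 0.333. Between genotypes, 0 passed on control diet and 0 on HFD, where Psme2b had the smallest unadjusted p, 0.0385 (adjusted p = 1, exact). The smallest p over all genes was 0.00332 on control diet and 0.00612 on HFD, with an adjusted p of 1. On either diet 0% of all genes tested passed, so the counts of 0 are not particular to proteasome genes. HFD against control diet, stratified by drug, gave 0 of 45 genes in WT and 0 of 45 in KO livers by the exact test, against 0% of all genes tested in each. At an unadjusted p under 0.05 there were 0 of the 45 in either genotype, against 0.227% of genes tested in WT and 0.308% in KO livers.

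Fold enrichment could be compared in the 12 proteasome genes with a peak in all 20 KO livers (Psma6, Psma7, Psmb2, Psmb6, Psmb7, Psmc6, Psmd1, Psmd2, Psmd3, Psmd4, Psmd7 and Psmd8). By limma on log2 fold enrichment centred on each library's median, 0 of 12 changed with pioglitazone, against 0% of 1850 genes called higher and 0.108% lower. An unadjusted p under 0.05 was reached by 0 of 12, against 5.03% of genes. The changes ran from -0.22 (Psmb6, SE 0.14, limma adjusted p = 0.948) to 0.10 (Psmd7, SE 0.14, limma adjusted p = 0.957), with a median of -0.03 on the log2 scale against -0.02 over all genes. For HFD 0 of 12 changed by limma, against 0% of 1850 genes, and 0 had an unadjusted p under 0.05, against 4.32% of genes. The changes ran from -0.0045 (Psmd4) to 0.18 (Psmd8), with a median of 0.07 against -0.0009 over all genes.

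Core and regulatory genes were compared within each library, and the difference between genotypes was not tested. In Pio-treated WT livers 63.2% ± 29.7 (SD, n = 10) of core genes and 53.8% ± 29.8 of regulatory genes were called per library. The difference, 9.31 percentage points ± 13 (SD), was smaller than its spread between libraries, with core higher in 8 of 10. In untreated KO livers 53.2% ± 12.3 of core and 74.2% ± 11.5 of regulatory genes were called, a difference of -21.1 points ± 7.04, with core lower in 10 of 10 libraries. The core set held 3 immunoproteasome and 2 tissue-specific genes, called in 0% of gene and liver pairs there. The 7 alpha and 7 constitutive beta genes reached 68.6% and 75.7%. In the regulatory set, ATPase and non-ATPase genes reached 88.3% and 90.9%, activators 56%, chaperones 40% and Psmc3ip 0%. The difference thus also carries the make-up of both sets. In Pio-treated KO livers the values were 61.6% ± 4.99 and 77.3% ± 5.27, a difference of -15.7 points ± 8.05, with core lower in 9 of 10. In untreated WT livers both shares were below 3% (2.63% and 2.69%). At a stricter peak threshold, -log10 q of at least 5, the difference shrank to -6.56 points in untreated KO livers and turned to 2.51 points in Pio-treated KO livers.

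By role, the 7 alpha genes were called in 75.7% of gene and liver pairs in Pio-treated WT and 75.7% in Pio-treated KO livers, and the 7 constitutive beta genes in 80% and 90%. The 6 ATPase genes reached 66.7% and 98.3%, and the 11 non-ATPase genes 52.7% and 96.4%. The 5 activator genes had 64% and 58%, the 3 assembly chaperones 33.3% and 23.3%, and the 3 immunoproteasome genes 33.3% and 3.33%. Over all protein-coding genes the shares were 15.8% and 29.9%. The excess of KO over WT livers was therefore widest in the non-ATPase and ATPase genes. The immunoproteasome, activator and chaperone shares went the other way, but the last 2 classes were split. Psme1, Psme2 and Psme2b were called in 9, 8 and 10 treated WT and 4, 0 and 6 treated KO livers, but Psme3 and Psme4 in 1 and 4 against 9 and 10. Among the chaperones Psmd10 had 6 against 0, but Psmd5 and Psmd9 had 1 and 3 against 3 and 4. Depth and peak cutoff differ between the genotypes, pairs of genes and livers are no replicates, and these gaps were not tested.

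**Figure D3:**
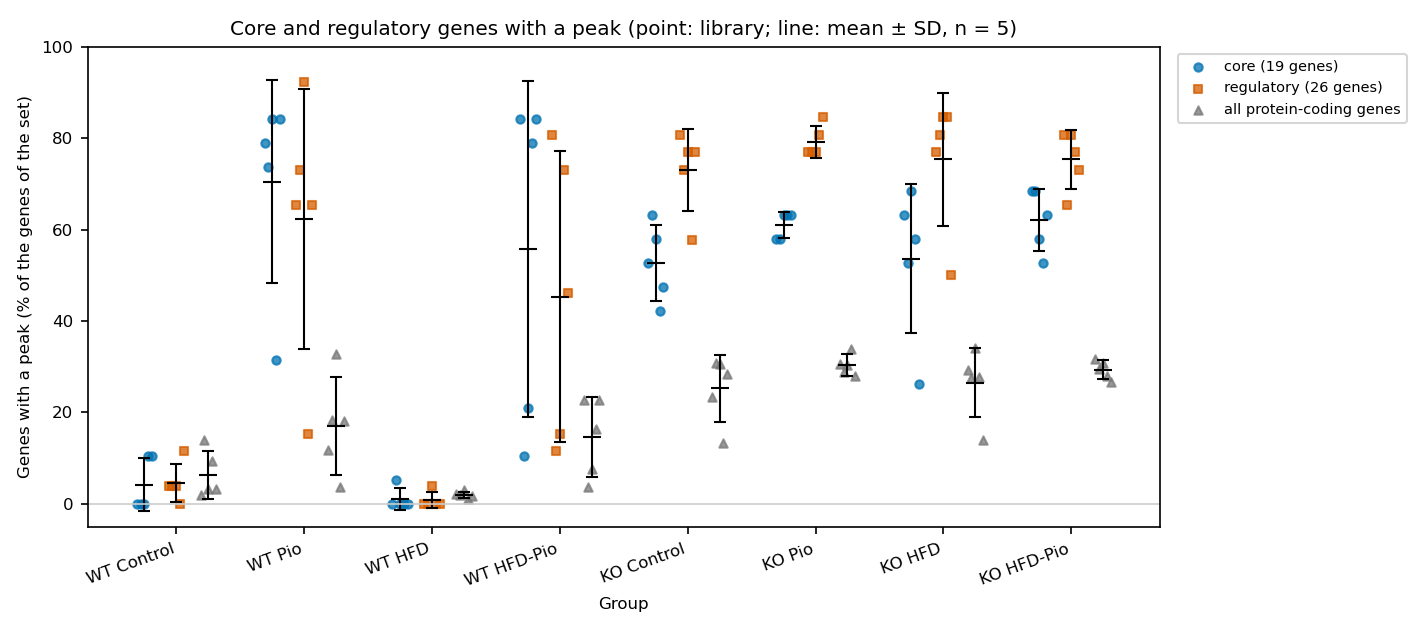
Percent of core genes (blue circles), regulatory genes (orange squares) and all protein-coding genes (grey triangles) with a peak in each library, by group, with the mean and SD of 5 libraries as black lines. In KO groups the regulatory means lie above the core means, and in Pio-treated WT groups both span a wide range, from 10.5 to 84.2% for core genes.

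The position of the peaks within the genes was also recorded. Of 12 peaks in proteasome genes of untreated WT livers, 12 had their summit in an intron. In Pio-treated WT livers, 752 peaks had 87.5% of summits in coding exons, 10.9% in introns and 0.665% in 3′ UTRs, although exons make up 14.3% of the bodies of these genes. Over all protein-coding genes in the same livers, 32.9% of summits were in coding exons and 55.4% in introns. In KO livers, 68.3% of 895 untreated and 68.9% of 1039 Pio-treated summits were in coding exons and 11.7% and 11% in 3′ UTRs, against 44.8% and 44.6% coding and 28.2% and 27.7% 3′ UTR over all genes. The part of the shifts in the marker lists in these positions was not tested.

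Counted in bases, coding sequence was covered more than the untranslated ends. In Pio-treated WT livers, peaks lay over 12.2% ± 8.02 (SD, n = 10) of the 50.2 kb of coding bases, 0.373% ± 0.597 of the 26.4 kb of 3′ UTR bases, 0.233% ± 0.62 of 5′ UTR bases and 0.209% ± 0.356 of the 859 kb of intron bases. In Pio-treated KO livers the shares were 22.4% ± 3.19, 11.3% ± 3.24, 1.92% ± 1.87 and 0.652% ± 0.165. By library, 0 to 2.13% of proteasome gene summits were in 3′ UTRs in Pio-treated WT livers and 7.62 to 16.5% in Pio-treated KO livers, so the libraries of these classes did not overlap in this share. The median peak was 70 bp wide in Pio-treated WT livers, 175 bp in Pio-treated KO and 184 bp in untreated KO livers.

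**Figure D4:**
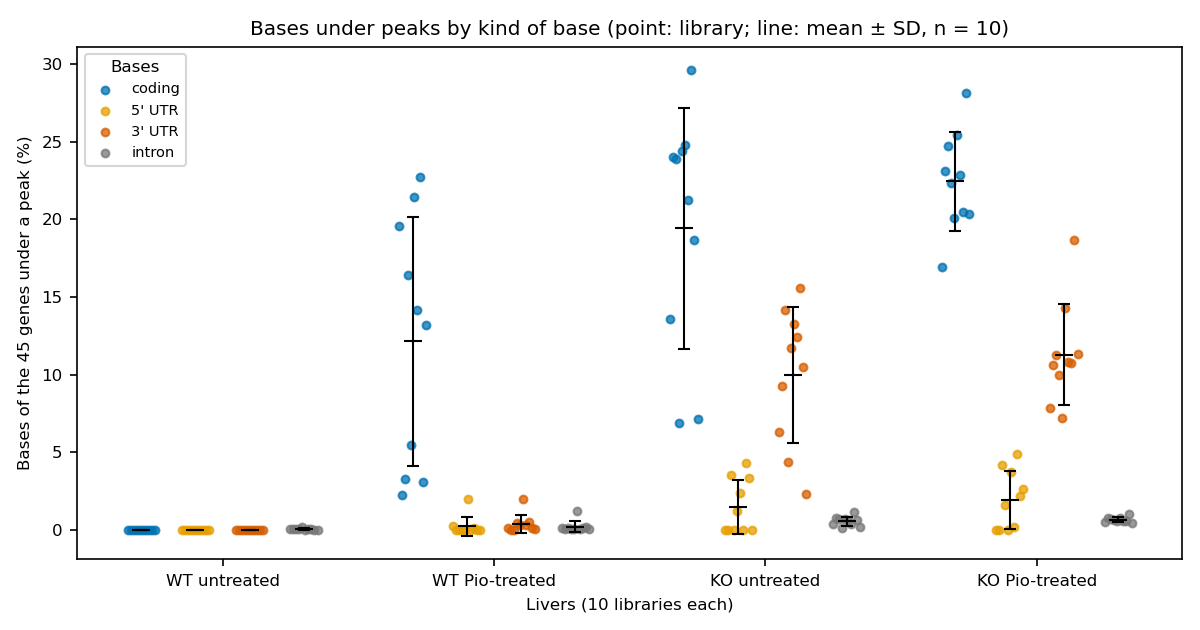
Percent of the coding, 5′ UTR, 3′ UTR and intron bases of the 45 genes that lie under a peak, for each library (points) with the mean and SD of 10 libraries (black lines). Coding bases are covered most in the 3 classes with peaks, and 3′ UTR bases are covered at 2.32 to 18.7% in KO libraries but at most at 2% in WT libraries.

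Several exons of a gene often had summits in the same library. Where a proteasome gene had an exonic summit, more than 1 exon had one in 73.9% of 241 gene and library pairs in Pio-treated WT livers, 63.3% of 283 in untreated KO and 73.5% of 306 in Pio-treated KO livers. The most were 10 of 25 exons of Psmd1 in KO HFD replicate 3, 9 of 21 exons of Psmd2 in KO Control replicate 3, followed by 8 exons in Psmd11, Psmd14 and Psmd3, the first pair in WT Pio replicate 3. The intronless pseudogene Psmb6-ps2, 93.9% identical to the Psmb6 transcript over 704 aligned bases, had a peak in 24 of 40 libraries, 8 of them Pio-treated WT, 0 untreated WT and 16 KO. Of the other processed pseudogenes, Psmb7-ps2 (91.5% identical to the Psmb7 transcript over 810 aligned bases) had a peak in 11 libraries. Psmb5-ps (94.9% identical to Psmb5 over 783) had a peak in 2 and Psmb6-ps in 0. Peaks in these copies and in Psmb6, Psmb7 and Psmb5 may share reads.

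A direct repeat of AGGTCA with 1 base between the copies, the element of RXR with PPARγ (both strands searched, up to 2 mismatches, 100 bases either side of the summit), was found at 0.798% of the 752 proteasome gene peaks of Pio-treated WT livers, against 2.05% of all peaks in protein-coding genes there. In KO livers it was found at 1.56% of untreated and 1.54% of Pio-treated proteasome gene peaks, against 2.65% and 2.73% of all. A single AGGTCA without mismatch lay in 11% of these windows in Pio-treated WT livers, 10.1% in untreated KO and 11.3% in Pio-treated KO livers, against 10.3%, 12.9% and 13% of all.

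Promoters were compared as well. RefSeq promoters of 300 bases around the start were matched for 38 of the 45 genes, 41 promoters in all. A peak overlapped a promoter of 0 genes in untreated WT livers, 1 gene (Psma7) in Pio-treated WT, 4 in untreated KO and 6 in Pio-treated KO livers. As shares of the 38 genes these are 0%, 2.63%, 10.5% and 15.8%, against 0.326%, 1.09%, 2.74% and 4.04% of all genes with a RefSeq promoter. The direct repeat with up to 2 mismatches was found in 0 of the 41 promoters, against 3.86% of 32851 promoters in all.

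Other genes of the ubiquitin-proteasome pathway, a list of 31 annotated protein-coding genes chosen with earlier results known, were counted beside the proteasome genes. With pioglitazone in WT livers, 5 of the 31 were called in more treated livers, against 4.15% of all genes tested, and 0 in fewer by the exact test, among them the ubiquitin genes Ubb (10 against 1 liver, adjusted p = 0.0101) and Rps27a (9 against 0, adjusted p = 0.0101), the small cap subunit gene Sem1 (9 against 1, adjusted p = 0.0293) and Ufd1, a cofactor of the segregase VCP (8 against 0, adjusted p = 0.0249). In KO livers 0 of 31 passed for pioglitazone, against 0% of all genes tested. Between genotypes 21 were called in fewer WT than KO livers by the exact test, against 36% of all genes tested, among them Ubqln1 (2 against 20, adjusted p = 2.49e-07), a shuttle of ubiquitinated proteins, and Nfe2l1 (3 against 20, adjusted p = 7.37e-07), the transcription factor that raises proteasome genes when the proteasome is inhibited. Rps27a alone was called in more WT livers (9 against 0, adjusted p = 0.000745, exact).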

How the data were processed

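RXR ChIP-Seq of 40 livers (8 groups of 5) was used. Input libraries were not analysed here beyond their tag numbers (2.17 to 7.97 M kept). Per the labels and the methods of the study, the authors used Novoalign with mm10 and then MACS2 (2.1.1.20160309), each ChIP library having its own input as control and 1 tag being kept per position. The deposited fold enrichment (a ratio) is that of ChIP to local input at the summit, the deposited signal is the pileup of tags, and the deposited -log10 p and -log10 q were used for thresholds and ranking. No reads per site were used, so the authors' differential test on reads could not be repeated, no counting interval was computed and p-values measure only the spread between these livers. Peaks of both deposited file types were identical in 40 libraries.

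Peaks were assigned to gene bodies with bedtools 2.31.1 (at least 1 bp) under GENCODE M21, the strongest peak standing for the gene. Numbers of livers were compared by exact conditional tests (Fisher's for single contrasts, Zelen's for differences of effects), adjusted by Benjamini-Hochberg over genes called in at least 1 liver, at 0.05. limma 3.58.1 (R 4.3.3, trend) was used on log2 fold enrichment. Both tests were checked on simulated data. Python 3.11.15, scipy 1.17.1, pysam 0.24.0 and Biopython 1.88 were used. The members, lists and tests were chosen with earlier results of these data known. Values are given for the 10 members called in most livers, the 8 with the largest drug difference in WT, and up to 5 others per test passed. Numbers in the labels do not pair livers, which are separate animals. Alternatives were cutoffs, overlap rules, equal list lengths and libraries left out. Some genes of the lists are counted but not reported here by name.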

Additional observations from a re-analysis of the deposited data

Results flagged for a closer look

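Libraries far from the others of their group were sought by the ratio of the gap to the range (critical value for 5 samples) in 31 sets of 5 values. Most sets hold small whole numbers with ties, and core and regulatory counts are parts of the total, so the rate of chance marks is not known. A library with 1 gene against 0 in the others is always marked. For the number of proteasome genes with a peak, WT Control replicate 5 stood high with 5 against 1 to 2 in the others, WT Pio replicate 4 stood low with 10 against 32 to 40, KO Control replicate 4 stood low with 23 against 29 to 31, and KO HFD replicate 5 stood low with 18 against 31 to 35. For core genes alone, WT Pio replicate 4 had 6 against 14 to 16 and WT HFD replicate 2 had 1 against 0. For regulatory genes alone, WT HFD replicate 3 had 1 against 0, and KO HFD replicate 5 had 13 against 20 to 22. The median fold enrichment of the genes called was 6.40 in KO HFD replicate 1, against 5.55 to 5.71 in the other KO HFD libraries.

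The libraries low in number were also low over all protein-coding genes: 3.79% of all genes had a peak in WT Pio replicate 4, 13.4% in KO Control replicate 4 and 14% in KO HFD replicate 5.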

How the results depend on the processing

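Over 26 results, 494 of 528 values under alternatives were scored as the same, 31 as moved and 3 as turned. A value was the same if a count was equal to or near the reported one, or if a difference lay within its SD between libraries. Turned means a change of direction. The values scored as the same include counts of 0 against 0 in tests that called 0% of all genes. At -log10 q of at least 5, the genes called in at least 3 of 5 livers fell to 17 (WT Pio), 5 (WT HFD-Pio), 18 (KO Control), 20 (KO Pio) and 18 (KO HFD), the core minus regulatory difference was -6.56 points in untreated KO livers and turned to 2.51 in Pio-treated KO livers, and 19 genes differed between WT and KO livers. At q of at most 0.05 in every library, WT HFD-Pio had 14 genes and 7 genes passed the test of pioglitazone in WT livers. At equal list length (579 peaks), the recurrent genes were 2 (WT Pio), 3 (WT HFD-Pio) and 0 in each KO group, core minus regulatory was -0.769 points in untreated KO livers and turned to 1.05 in Pio-treated KO livers, 2 genes passed for pioglitazone in WT and the WT against KO count turned to 2 higher and 0 lower. The WT pioglitazone count was 25 with exonic peaks only, 22 with genes called in at least 3 livers tested, 21 without strata and 0 without the short-fragment libraries, where 4 treated livers remained and the smallest p of the design had an adjusted value of 0.199 (exact). Chosen after seeing the data, a peak in both remaining livers without those libraries gave 9 (WT Pio) and 3 (WT HFD-Pio); 3 of 5 could not be counted there. The shares of all genes called at the other cutoffs, at equal list length and in the altered exact tests with calls were not computed. Whether other genes moved alike was therefore not tested. The cause was not tested, except that fewer peaks or genes enter by construction.

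With each library left out in turn, the recurrent genes ranged from 8 to 26 in WT HFD-Pio, 29 to 33 in WT Pio and 28 to 32 over the KO groups, the WT pioglitazone count from 12 to 27 and the WT against KO count from 32 to 33. Recurrent genes still needed a peak in 3 livers, a stricter rule for the livers left. The shares of all genes were not computed for these counts. The replicate block left 0 of 12 genes past limma for pioglitazone and 0 of 12 for HFD, as without it. Label numbers did not pair KO livers (same-number correlations of deviations -0.0647 to 0.0538, 30 pairs). No paired analysis was possible for the exact tests because the numbers mark separate animals. Peak lists hold no reads, so the depth behind a missing call is not known, and KO libraries kept fewer tags than any WT library.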
